A study of Mus musculus with 6 samples.

Results

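The genes described here are 45 ligands, receptors, SMADs, inhibitors and targets of the TGF-beta, BMP and activin pathways. They were taken by symbol from a count table of 55536 mouse genes, and all 45 were found in it. Whole pancreatic islets, the clusters of insulin-, glucagon- and somatostatin-producing cells of the pancreas, were compared between 2 genotypes with 3 libraries each. Control mice were Klf4+/+;Gcg-iCre and knockout mice were Klf4fl/fl;Gcg-iCre, so both groups carried the Cre driver, and the floxed allele of Klf4, a zinc finger transcription factor, was the difference. Gcg-iCre is driven from the glucagon gene and acts in alpha cells, a minority of the islet, while RNA was taken from every islet cell. The series text gives the strain as C57B1/6J. Age, sex and the number of animals behind each library are not given in the sources used here, so p-values measure the spread between these libraries, which may be technical.

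Ligands of this family are secreted dimers that bring a type II receptor together with a type I receptor, and the type II receptor then phosphorylates and activates the type I receptor. TGF-beta and activin receptors signal through SMAD2 and SMAD3, BMP receptors through SMAD1, SMAD5 and SMAD9, and both branches use the common partner SMAD4. In the islet the family is known for activin and BMP signals that act on endocrine cell differentiation and insulin secretion, and in pancreatic mesenchyme TGF-beta is known as a driver of matrix production.

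Libraries held 101277200 to 110243918 counts. Ins2, the main insulin gene, lay between 11805849 and 13306731 counts per library after scaling by DESeq2 size factors, the unit called normalized counts here, and Gcg lay between 2855551 and 5636518. Klf4 itself, in a gene-level count that does not separate the floxed exons, ran from 2015 to 3148 in the controls and from 2277 to 2540 in the knockouts (log2 fold change -0.17 ± 0.15, SE, adjusted p = 0.774). Xist ran from 77938 to 108105 in the controls and from 12.38 to 30.22 in the knockouts, while the Y-linked Ddx3y was at 0 in each control and at 5599 to 6265 in the knockouts. Genotype and sex-linked transcripts therefore split the libraries identically, and they cannot be told apart for any difference below. None of the 45 genes lies on a sex chromosome. Of 8 mesenchymal markers, 5 were called higher in the knockouts by DESeq2 and 3 by edgeR, with 0 called lower, and their summed level was 51444 to 67294 in controls and 96704 to 103315 in knockouts. Of 8 alpha-cell markers, 4 were called lower and 0 higher by DESeq2, with sums of 4128397 to 5934522 and 3060348 to 3758955. In edgeR 0 of the 8 were called, with an unadjusted p under 0.05 for 6. The 7 acinar markers summed to 532709 to 1074806 in controls and 1352294 to 1915712 in knockouts, without overlap for any of the 7, and their log2 fold changes ran from 0.98 to 1.26. DESeq2 and edgeR called 0 of the 7, with an unadjusted p under 0.05 for all 7 in both. None of the cell type markers was at 0 in any library. In such bulk RNA, fewer cells of a type and less RNA per cell cannot be told apart.

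Of the 45 genes, Acvr2a alone passed the threshold in DESeq2 (Benjamini-Hochberg adjusted p under 0.05 over all genes), and it was lower in the knockout libraries. Acvr2a encodes activin receptor type 2A, a type II receptor for activins that also binds several BMPs. The 45 genes gave 43 adjusted p-values; Nog and Grem1 were too low for one. Across the transcriptome 2.19% of 17797 genes passed, 0.657% in the lower direction, so 1 call among 43 genes is close to the background share. The median log2 fold change of the 43 was -0.005, against -0.006 over all tested genes, and 21 were positive and 22 negative. Their median absolute log2 fold change was 0.120, against 0.111 over all tested genes. An unadjusted p under 0.05 was reached by 5 of the 43 (11.6%, background 11.5%), and the groups did not overlap for 7 (16.3%, background 17.3%). Of these 7, 5 were higher in the knockouts (Tgfbr2, Acvr1b, Smad6, Smad7 and Id3, background 9.06%) and 2 lower (Acvr2a and Smad3, background 8.23%). The 95% confidence interval of the fold change lay within 1.5-fold in both directions for 31 of the 43, or 72.1%, against 66.6% of all tested genes and 75.2% of those with a mean of at least 50, a mean that 42 of the 43 had. The edgeR quasi-likelihood test called 0 of the 43, with an unadjusted p under 0.05 for 3 of them. Over its 25210 genes it called 0.115%, and 9.48% had an unadjusted p under 0.05. Of the 17797 genes with a DESeq2 adjusted p it called 29, and 2012 had an unadjusted p under 0.05.

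**Figure D1:**
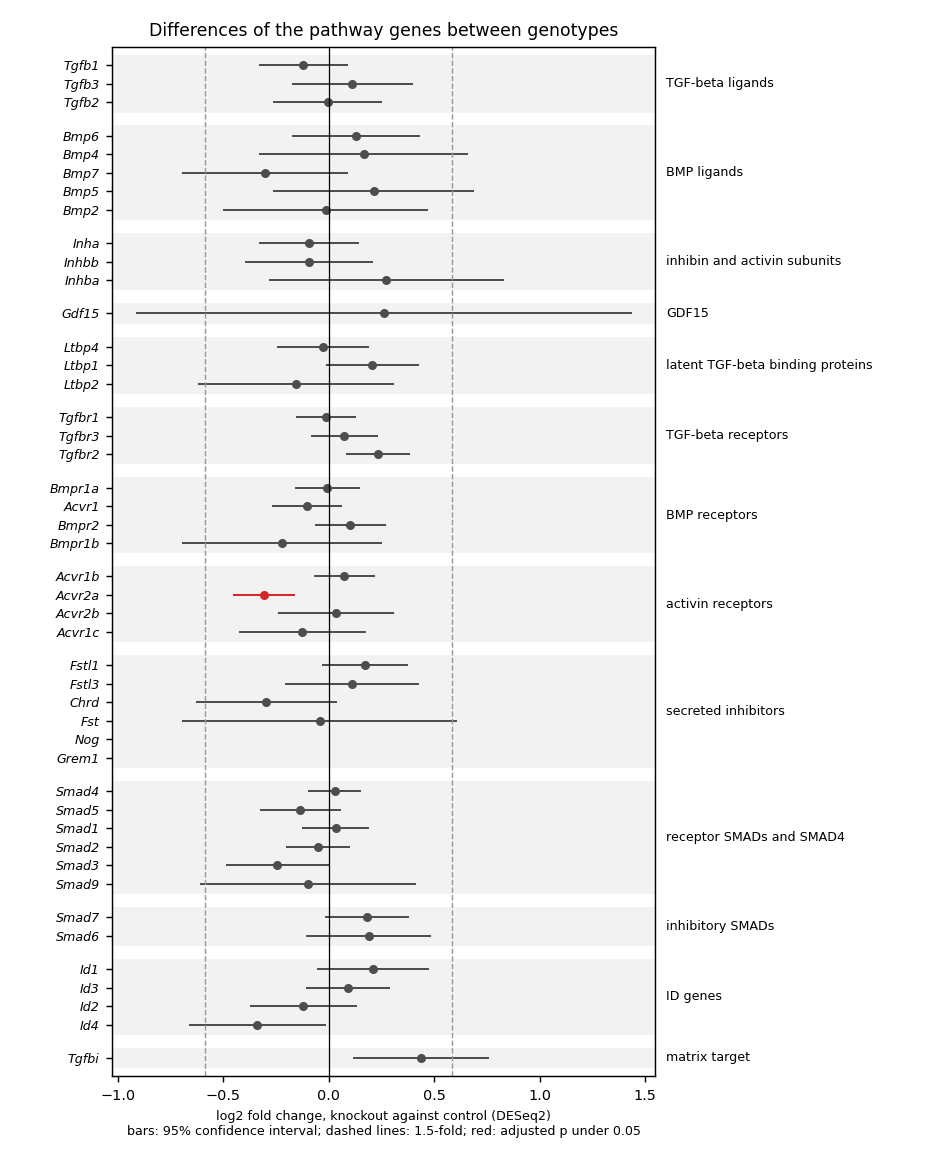
Log2 fold change of knockout against control for the 43 genes with a DESeq2 adjusted p, grouped by role, with 95% confidence intervals as bars and dashed lines at 1.5-fold. Acvr2a, drawn in red at -0.31, is the gene past the threshold, and Gdf15 has the widest interval, from -0.91 to 1.43. Nog and Grem1 are listed without a point.

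Acvr2a (ENSMUSG00000052155, chromosome 2, 48814109 to 48903269, plus strand, GRCm38) had 5141, 4825 and 4798 normalized counts in the 3 control libraries, in replicate order, and 3923, 4077 and 3939 in the 3 knockout libraries. Every knockout library lay below every control library, and the gap between the groups was wider than the spread within either. Means were 4921 ± 190.5 for controls and 3980 ± 84.5 for knockouts (SD, n = 3 each). The log2 fold change was -0.31 ± 0.07 (SE, DESeq2 adjusted p = 0.00291), a change of -19.1% with a 95% confidence interval from -26.7% to -10.8%. The call was lost without knockout replicate 1 (-0.30, adjusted p = 0.0736) and in edgeR (-0.30, adjusted p = 0.139), and it held in the other 9 of 11 alternatives, with adjusted p-values from 0.000128 to 0.139 over all 11. The share of all genes called moved with the alternatives: it was 2.29% with TMM factors, 2.17% without the filter on low counts, 2.28% with a stricter one and 2.47% with the replicate number as a block. Leaving out control replicate 1, 2 or 3 gave 2.49%, 1.56% and 6.28%, and leaving out knockout replicate 1, 2 or 3 gave 0.88%, 2.25% and 1.49%. Some exons of Acvr2a overlap exons of Orc4 on the opposite strand, and the strand setting of the counts is not given. Orc4 was at 2786 to 2945 in controls and 2603 to 2763 in knockouts, also without overlap, but was not called (log2 fold change -0.09 ± 0.08, adjusted p = 0.778). The alpha-cell markers were lower in the same libraries, as given above. Of 7 beta-cell markers DESeq2 and edgeR called 0. In DESeq2, 4 of their log2 fold changes were positive and 3 negative, with an unadjusted p under 0.05 for 3 (background 11.5%). Of 7 pericyte and smooth muscle markers both tests called 0. In DESeq2, 2 were positive and 5 negative, with an unadjusted p under 0.05 for 2. The part of these markers in the Acvr2a difference was not tested.

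Promoter windows were looked up because Klf4 encodes a factor known to bind CACCC-type sequences. The windows are RefSeq's on GRCm38.p6, from 250 bases before to 50 bases after an annotated start, and 35 of the 45 genes had at least 1. Acvr2a, the gene past the threshold, is shown beside Tgfbr2, the gene next closest to it and different in direction. Matches to CACCC or its reverse complement GGGTG are in capitals. The Acvr2a window is chr2:48813859-48814158, plus strand, and the Tgfbr2 window is chr9:116175314-116175613, minus strand.
Acvr2a: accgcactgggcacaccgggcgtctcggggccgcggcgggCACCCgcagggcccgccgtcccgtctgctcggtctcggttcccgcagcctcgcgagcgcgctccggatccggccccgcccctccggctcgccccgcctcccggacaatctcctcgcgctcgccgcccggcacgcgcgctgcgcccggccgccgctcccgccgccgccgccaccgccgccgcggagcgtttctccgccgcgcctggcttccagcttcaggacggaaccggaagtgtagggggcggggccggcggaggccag
Tgfbr2: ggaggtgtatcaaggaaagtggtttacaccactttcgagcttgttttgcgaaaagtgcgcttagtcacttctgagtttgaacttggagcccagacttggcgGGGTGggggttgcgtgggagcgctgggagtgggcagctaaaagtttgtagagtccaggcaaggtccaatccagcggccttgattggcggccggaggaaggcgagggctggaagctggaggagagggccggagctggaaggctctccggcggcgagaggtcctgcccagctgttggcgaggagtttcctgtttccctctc
Each window held 1 match, and 57.5% of all 32851 windows held at least 1. Among the pathway genes, 32 of 45 windows, belonging to 28 genes, did. A match of these letters describes the sequence and is not evidence of binding.

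The other activin receptors had small differences. Acvr1b, which encodes the type I activin receptor ALK4 and had the most counts per kilobase of exon of this class, was at 4496, 4445 and 4178 in controls and at 4553, 4607 and 4646 in knockouts. The groups did not overlap, but the log2 fold change of 0.07 ± 0.07 was not past the threshold (adjusted p = 0.813), and its interval ran from a change of -4.51% to 16.0%. Acvr2b, which encodes the other activin type II receptor, was at 1353, 943.7 and 1181 in controls and at 1189, 1194 and 1181 in knockouts. Its groups overlapped, and its log2 fold change was 0.04 ± 0.14 (adjusted p = 0.973). Acvr1c encodes ALK7, a type I receptor known in beta cells and fat, and it showed a log2 fold change of -0.12 ± 0.15 (adjusted p = 0.871). A test of whether Acvr2a differed from these receptors in its response was not run.

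Among the subunits of inhibins and activins, Inha, which encodes the inhibin alpha chain, was far above both activin beta chains. Inha was at 3138, 2958 and 2304 normalized counts in controls and at 2623, 2632 and 2617 in knockouts. The knockout libraries lay within the control range and almost on 1 value, with a coefficient of variation of 0.277%, the lowest in the knockouts among the 42 pathway genes with a mean of at least 50. Its log2 fold change was -0.09 ± 0.12 (adjusted p = 0.878), but without control replicate 3, the lowest control, it was -0.22 with an adjusted p of 0.0432. Inhbb, the beta B chain of activin B, was at 704.2 to 1021 in controls and at 763.2 to 805.3 in knockouts, and Inhba, the beta A chain, was at 93.35 to 138.2 and 113.3 to 167.1. Neither passed, with log2 fold changes of -0.09 ± 0.15 and 0.27 ± 0.28 (adjusted p = 0.923 and 0.829). Per kilobase of exon, controls held 1898 ± 297.5 normalized counts for Inha, 196 ± 38.8 for Inhbb and 17.7 ± 3.60 for Inhba (SD, n = 3 each).

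The genes of follistatin and its relatives follow. Fstl1, which encodes a matrix glycoprotein related to follistatin, was the most abundant per kilobase of the secreted inhibitors described here. It was at 3751, 4392 and 3526 in controls and at 4095, 4437 and 4630 in knockouts, with overlapping groups and a log2 fold change of 0.17 ± 0.10 (adjusted p = 0.549). Fst, which encodes follistatin itself, was low, at 89.11 to 124.8 in controls and 79.33 to 134.7 in knockouts. Its interval was wide, from a change of -38.0% to 51.8%, and its coefficient of variation in the knockouts, 32.3%, was the highest there among the 42 pathway genes with a mean of at least 50. Fstl3, an activin-binding relative of follistatin, lay between, at 448.7 to 577.0 in controls and 493.0 to 638.7 in knockouts (log2 fold change 0.11 ± 0.16, adjusted p = 0.907).

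For the TGF-beta branch, the 3 ligand genes did not differ beyond the spread between libraries. Tgfb1, the ligand gene with the most counts per kilobase, was at 1654, 1853 and 1549 in controls and at 1640, 1526 and 1487 in knockouts. Those groups overlapped, and the log2 fold change was -0.12 ± 0.10 (adjusted p = 0.774). Tgfb2 and Tgfb3 showed log2 fold changes of -0.005 ± 0.13 and 0.11 ± 0.14 (adjusted p = 0.996 and 0.884). The 3 intervals together bounded changes to between -20.2% and 31.3%.

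Latent TGF-beta binding proteins hold the ligand in the matrix, and Ltbp4 was the most abundant of all 45 genes per kilobase. It was at 23358, 20294 and 18293 normalized counts in controls and at 20263, 22471 and 18023 in knockouts, with overlapping groups and a log2 fold change of -0.03 ± 0.11 (adjusted p = 0.974). Ltbp1 was at 1106 to 1317 in controls and 1311 to 1498 in knockouts, with a log2 fold change of 0.21 ± 0.11 (adjusted p = 0.476). Among the 42 genes with a mean of at least 50, Ltbp2 had the widest relative spread in controls, a coefficient of variation of 34.1%, from 518.7 to 1040, and a log2 fold change of -0.15 ± 0.24 (adjusted p = 0.912).

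Tgfbr2 (ENSMUSG00000032440, chromosome 9, 116084293 to 116175360, minus strand), the type II receptor for TGF-beta, came closest to the threshold after Acvr2a. It was at 2892, 2940 and 2945 in controls and at 3547, 3449 and 3322 in knockouts. All 3 knockout libraries lay above all 3 controls, and the controls were nearly level, with the lowest coefficient of variation among these controls, 0.991%. The log2 fold change was 0.23 ± 0.07 (adjusted p = 0.0647), a change of 17.6% with an interval from 6.30% to 30.0%. It did not pass, except without control replicate 3 (0.24, adjusted p = 0.0185), and in edgeR its adjusted p was 0.232. The mesenchymal marker sum was higher in the same 3 libraries, and its part in this value was not tested.

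Tgfbr1, the type I receptor for TGF-beta, was at 7110, 6636 and 7094 in controls and at 7129, 6765 and 6774 in knockouts. It was level, with a log2 fold change of -0.01 ± 0.07 (adjusted p = 0.982) and an interval from -9.87% to 9.15%. The co-receptor gene Tgfbr3, whose product betaglycan presents TGF-beta and inhibin, was at 4039 to 4463 in controls and 4287 to 4579 in knockouts (0.07 ± 0.08, adjusted p = 0.835).

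Tgfbi, a TGF-beta-induced gene that encodes a secreted matrix protein, had the largest positive log2 fold change of the 43, 0.44 ± 0.16. It was at 853, 1018 and 872 in controls and at 1390, 938.5 and 1383 in knockouts. Knockout replicates 1 and 3 lay above every control, while knockout replicate 2 lay within the control range, and the adjusted p was 0.154. Without knockout replicate 2 the log2 fold change was 0.60 with an adjusted p of 0.000713. The sum of the mesenchymal markers was 103315, 96704 and 100550 in knockout replicates 1 to 3, lowest in that library too, and 51444 to 67294 in controls. The 7 macrophage markers summed to 12496, 11823 and 10630 there and to 10697 to 11769 in controls. C1qa, the most abundant of them, was lower (log2 fold change -0.27). Of the 7 log2 fold changes 5 were positive and 2 negative, and 4 genes were higher without overlap (background 9.06%). Their mean log2 level was 9.98 to 10.08 in controls and 10.13 to 10.4 in knockouts. Ptprc, Cd68, Adgre1, C1qb and Lyz2 were lowest among the knockouts in replicate 2, and Csf1r and C1qa in replicate 3. DESeq2 called 2 of the 7 higher and edgeR called 0, with an unadjusted p under 0.05 for 3 in edgeR. The part of either marker list in the Tgfbi difference was not tested.

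**Figure D2:**
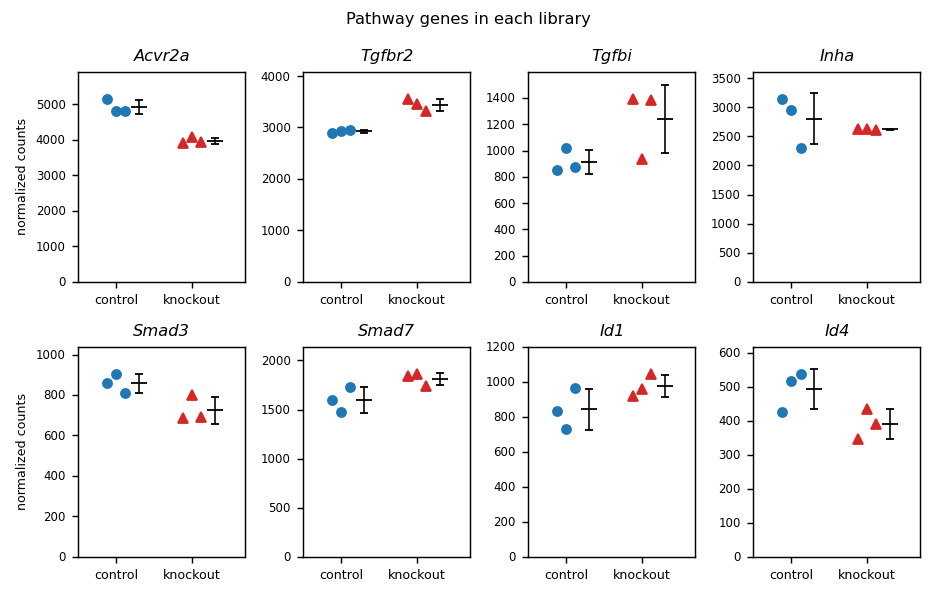
Normalized counts of 8 pathway genes in each library, with controls as circles, knockouts as triangles and the mean ± SD as a bar beside each group. Acvr2a, Tgfbr2, Smad3 and Smad7 have groups that do not overlap, the Inha knockout values lie at 2617 to 2632, and knockout replicate 2 lies apart from the other 2 knockouts for Tgfbi.

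In the BMP branch no ligand passed. Bmp6, an islet-expressed BMP also known as a regulator of iron balance in liver, had the most counts per kilobase among the 5 ligands. It was at 504.9, 418.6 and 398.9 in controls and at 506.2, 488.8 and 451.1 in knockouts, with overlapping groups (log2 fold change 0.13 ± 0.15, adjusted p = 0.863). Bmp7 was at 277.9 to 384.0 in controls and 229.5 to 305.3 in knockouts, and its log2 fold change of -0.30 ± 0.20 had an adjusted p of 0.625. Bmp4, at 133.7 in control replicate 3 and at 210.6 to 240.3 in the other 5 libraries, showed a log2 fold change of 0.17 ± 0.25 (adjusted p = 0.911). Bmp2 and Bmp5 were at 114.6 to 157.4 and 182.4 to 290.9 over the 6 libraries, with adjusted p-values of 0.993 and 0.849. For these low genes the intervals were wide: only Bmp2 and Bmp6 had one within 1.5-fold.

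Apart from Bmpr1b, the BMP receptor genes were more abundant per kilobase than the BMP ligand genes and had narrower intervals. Bmpr1a, a type I receptor gene known in beta cells, was at 10063, 10818 and 11251 in controls and at 10420, 10292 and 11287 in knockouts. It was level, with a log2 fold change of -0.006 ± 0.08 (adjusted p = 0.991) and an interval from -10.3% to 10.6%. Bmpr2, the BMP type II receptor, was at 8704 to 10278 in controls and 9824 to 10188 in knockouts (0.10 ± 0.08, adjusted p = 0.743). Acvr1, which encodes the type I receptor ALK2, was at 2905 to 3179 and 2742 to 2940 (-0.10 ± 0.08, adjusted p = 0.738). Bmpr1b was the low member, at 169.1 to 279.4 over all 6 libraries, and its knockout range contained the controls (-0.22 ± 0.24, adjusted p = 0.839).

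Of the BMP antagonist genes Chrd, Nog and Grem1, Chrd, which encodes chordin, had the most counts. It was at 734, 668.2 and 949.4 in controls and at 640.3, 725 and 550.8 in knockouts, with overlapping groups and a log2 fold change of -0.29 ± 0.17 (adjusted p = 0.526). Some of its exons overlap Thpo on the opposite strand. Nog, which encodes noggin, was at 2.122 to 13.44 normalized counts, and Grem1, which encodes gremlin, at 3.840 to 11.90, and neither had an adjusted p.

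SMAD genes ran over a wide range of levels. Smad4, the common partner, was at 7756, 7596 and 7682 in controls and at 7867, 7914 and 7714 in knockouts. It was among the most closely bounded of the 43, with a log2 fold change of 0.03 ± 0.06 (adjusted p = 0.947) and an interval from -6.29% to 11.0%. The BMP-branch genes Smad1 and Smad5 showed log2 fold changes of 0.03 ± 0.08 and -0.13 ± 0.10 (adjusted p = 0.954 and 0.672), and Smad9, at 119.0 to 193.9 over all libraries, of -0.10 ± 0.26 (adjusted p = 0.959). For the activin and TGF-beta branch, Smad2 showed a log2 fold change of -0.05 ± 0.08 (adjusted p = 0.911). Smad3 was at 859.9, 902.4 and 810.5 in controls and at 683.8, 800.3 and 688.6 in knockouts. The Smad3 groups did not overlap, although control replicate 3 and knockout replicate 2 nearly met, and the log2 fold change of -0.24 ± 0.12 was not past the threshold (adjusted p = 0.416).

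The inhibitory SMADs are feedback targets of the pathway that block receptors and SMAD4 binding. Smad7, which acts on both branches, was at 1593, 1471 and 1733 in controls and at 1837, 1859 and 1743 in knockouts, and Smad6, which acts mainly on BMP signals, was at 355.1, 339.9 and 355.4 and at 377.8, 388.8 and 431.1. For both genes every knockout library lay above every control. Neither passed, with log2 fold changes of 0.18 ± 0.10 (adjusted p = 0.487) for Smad7 and 0.19 ± 0.15 (adjusted p = 0.729) for Smad6. The interval for Smad7 ran from -0.780% to 29.7% and that for Smad6 from -6.81% to 39.5%. The Smad6 promoter window (chr9:64022010-64022309, minus strand, RefSeq on GRCm38.p6) is shown because it holds the palindrome GTCTAGAC, in capitals, the letters known as a binding sequence of SMAD3 and SMAD4.
Smad6: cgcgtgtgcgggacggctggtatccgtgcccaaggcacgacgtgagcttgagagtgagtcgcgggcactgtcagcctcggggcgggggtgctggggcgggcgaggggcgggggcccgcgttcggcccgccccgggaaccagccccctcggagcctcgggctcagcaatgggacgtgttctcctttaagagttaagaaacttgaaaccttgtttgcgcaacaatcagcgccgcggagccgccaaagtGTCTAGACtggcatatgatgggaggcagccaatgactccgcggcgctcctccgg
That palindrome was present in 0.213% of all windows and in the window of no other pathway gene with one. The GC-rich element GGCGCC, known from BMP SMADs, was in 14 of the 45 windows of the pathway genes and in 11.9% of all windows. Base composition was not matched in either count.

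The ID genes encode inhibitors of basic helix-loop-helix transcription factors and are known direct targets of BMP signalling. Their 4 differences pointed in both directions. Id1 was at 833.2, 729.6 and 965.4 in controls and at 921.8, 959.1 and 1044 in knockouts, with a log2 fold change of 0.21 ± 0.13 (adjusted p = 0.604). Id3 was at 1052 to 1169 and 1183 to 1207, without overlap (0.09 ± 0.10, adjusted p = 0.839). Id2 showed a log2 fold change of -0.12 ± 0.13 (adjusted p = 0.835). Id4 was at 426.5, 518.4 and 536.8 in controls and at 347.6, 434.2 and 391.2 in knockouts, and its log2 fold change of -0.34 ± 0.16 was the most negative of the 43. Control replicate 1 and knockout replicate 2 overlapped, and the adjusted p was 0.385. Exons of Id4 overlap 2 annotated genes on the opposite strand.

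Gdf15, which encodes a stress-induced hormone of the family, had the fewest counts of the 45 genes after Nog and Grem1. It was at 12.89, 40.32 and 40.31 in controls and at 18.89, 45.38 and 47.90 in knockouts. Replicate 1 was the low library in both groups, the groups overlapped, and the interval ran from a change of -46.7% to 170% (log2 fold change 0.26 ± 0.60, adjusted p = 0.952).

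The levels per kilobase of exon ordered the genes as follows over all 6 libraries. Ltbp4 stood first at 3164 ± 333 normalized counts per kilobase (SD over 6 libraries), and its range did not overlap that of Smad4, at 2089 ± 31.9. Smad4, Inha at 1839 ± 199 and Bmpr1a at 1683 ± 80.6 overlapped from neighbour to neighbour. Below a gap came Smad5, Tgfbr1 and Acvr1b, at 1080 ± 102, 1059 ± 33.2 and 1016 ± 38.1, which overlapped. Fstl1, Id1 and Acvr2a followed, with ranges of 717.6 to 942.3, 629.0 to 899.8 and 690.0 to 904.1. The least abundant were Gdf15 at 18.5 ± 7.92, Nog at 4.44 ± 2.24 and Grem1 at 1.76 ± 0.766. Of the 44 pairs of neighbours in this order, 6 had ranges that did not overlap. The median of the 45 genes was 220 normalized counts per kilobase, against 317 over all genes with an adjusted p. Among the 45 genes, receptors and SMADs ran from 30.06 (Smad9) to 2089 (Smad4) normalized counts per kilobase. The ligands other than Inha ran from 18.5 (Gdf15) to 321 (Tgfb1), so the 2 ranges overlapped.

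**Figure D3:**
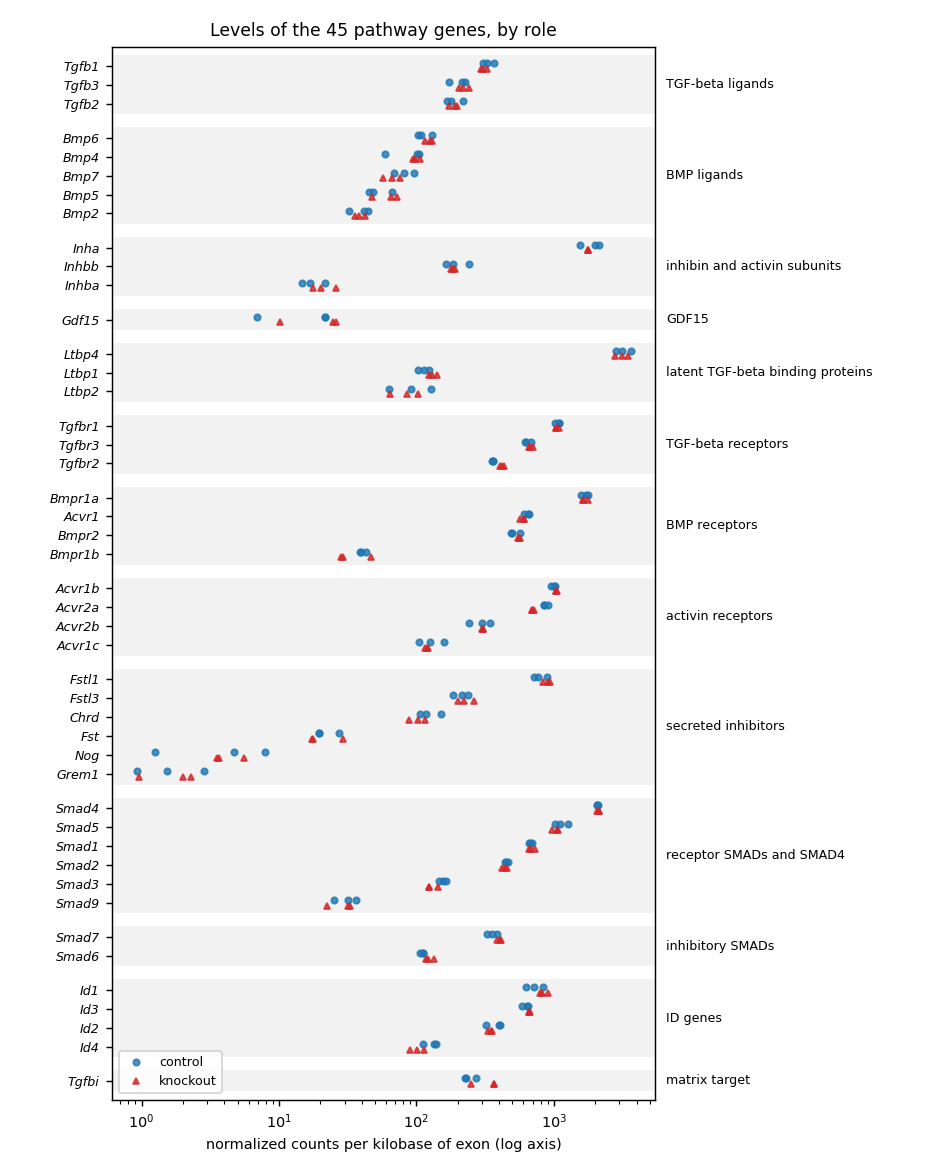
Normalized counts per kilobase of exon, on a log axis, for all 45 genes in each library, grouped by role and ordered by mean, with controls as circles and knockouts as triangles. Ltbp4 lies highest with a mean of 3164, Grem1 lowest with 1.76, and the knockout values of Acvr2a lie below its control values.

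The wider pathway was followed in a list of 98 further genes, 78 of which had an adjusted p. Of these 78, 5 passed, all higher in the knockouts and 0 lower, against a background of 1.53% for higher calls. The groups did not overlap for 23 (29.5%, background 17.3%), 14 higher (background 9.06%) and 9 lower (background 8.23%) in the knockouts. Fbn2, which encodes the microfibril protein fibrillin 2 that anchors latent TGF-beta and BMPs, rose from a mean of 323.4 normalized counts to 521.1. Its libraries were at 265.8, 362.9 and 341.6 in controls and at 471.3, 533.2 and 558.8 in knockouts (log2 fold change 0.69 ± 0.17, adjusted p = 0.00561). Crim1, a transmembrane protein with chordin-like repeats that binds BMPs, rose from 2047 ± 203 to 2667 ± 168 (SD, n = 3 each, log2 fold change 0.38 ± 0.10, adjusted p = 0.0168). Tgm2, a transglutaminase that cross-links matrix and is induced by TGF-beta, rose from 2647 ± 76.2 to 3396 ± 324 (0.36 ± 0.09, adjusted p = 0.0121). Col4a1, a basement membrane collagen, rose from 44604 ± 2521 to 54692 ± 1075 (0.29 ± 0.07, adjusted p = 0.00247). Nedd4l, a ubiquitin ligase that acts on activated SMAD2 and SMAD3, rose from 7560 ± 36.4 to 8722 ± 163 (0.21 ± 0.06, adjusted p = 0.0453). For each of the 5 genes, every knockout library lay above every control.

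By role, against 2.19% of all tested genes called, the calls were 2 of 26 secreted modulators with an adjusted p (Fbn2 and Crim1), 2 of 14 TGF-beta response genes (Tgm2 and Col4a1) and 1 of 19 intracellular regulators (Nedd4l). None of 9 further ligands, 5 further receptors and co-receptors or 5 BMP response genes was called by DESeq2, with unadjusted p-values under 0.05 for 2, 0 and 1 of them (background 11.5%), and edgeR called 0 of these too. Col4a2, which is transcribed from the same locus as Col4a1 in the opposite direction, was at 28512 ± 2192 and 34243 ± 1787 and just missed (0.26 ± 0.08, adjusted p = 0.0520); exons of the pair overlap at their starts. The mesenchymal markers were higher in the same 3 libraries, with 5 of 8 called by DESeq2 and 3 by edgeR. Of 6 duct markers, DESeq2 called 2 higher, Krt7 and Muc1, and 0 lower, edgeR called 0 with an unadjusted p under 0.05 for 2, and their sum was 25812 to 28031 in controls and 30284 to 34228 in knockouts. Of 8 endothelial markers 0 were called, with 1 unadjusted p under 0.05 in DESeq2 and 2 in edgeR, while all 8 log2 fold changes were positive, and the sums of 78636 to 88456 and 82527 to 95866 overlapped. The acinar sum was also higher in each knockout library, as given above. The part of these markers in the 5 calls was not tested.

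The 5 calls depended on the libraries and the test. In edgeR 0 of the 78 passed (0.115% of all 25210 genes) and 16 had an unadjusted p under 0.05 (9.48% of all 25210). Of the 17797 genes with a DESeq2 adjusted p, the set the 78 belong to, edgeR called 29, and 2012 had an unadjusted p under 0.05. The edgeR adjusted p-values were 0.21, 0.21, 0.196, 0.232 and 0.24 for Fbn2, Crim1, Tgm2, Col4a1 and Nedd4l. Col4a1 passed in 9 of the 11 alternatives, Fbn2 in 8, Crim1 in 7, Tgm2 in 6 and Nedd4l in 3. The count of called genes among the 98 is given with the share of all tested genes called in the same refit. It was 5 without control replicate 1 (2.49%), 3 without control replicate 2 (1.56%) and 10 without control replicate 3 (6.28%). It was 2 without knockout replicate 1 (0.88%), 1 without knockout replicate 2 (2.25%) and 3 without knockout replicate 3 (1.49%). Adjusted p-values of the 5 genes over the 11 alternatives ran from 1.34e-06 to 0.232 for Col4a1, 0.00426 to 0.21 for Fbn2, 0.00652 to 0.244 for Crim1, 0.0015 to 0.196 for Tgm2 and 0.00428 to 0.24 for Nedd4l.

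**Figure D4:**
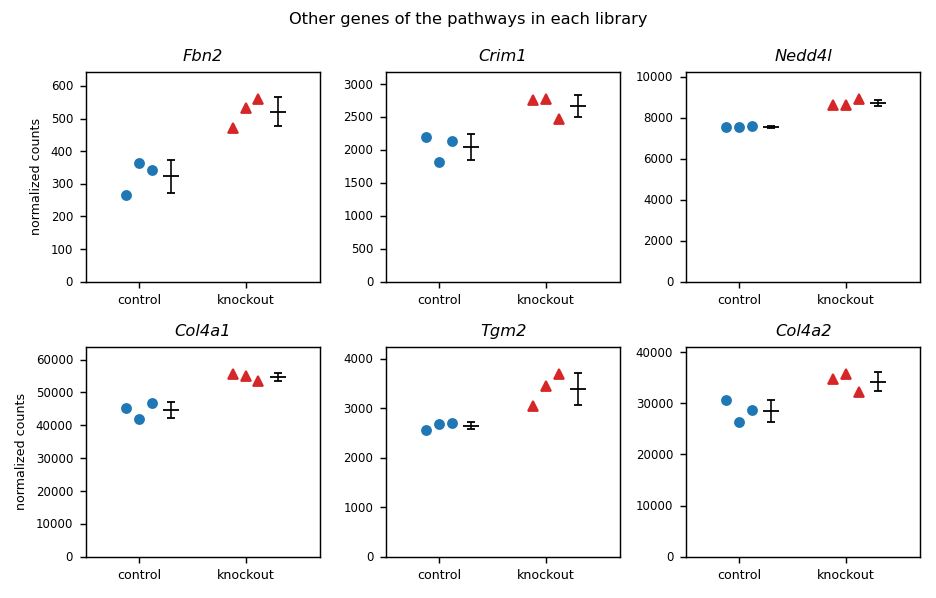
Normalized counts of the 5 further pathway genes past the threshold and of Col4a2, which was not, in each library, with controls as circles, knockouts as triangles and the mean ± SD as a bar. For each of the 6 genes the knockout values lie above the control values, by 61.1% in the fitted mean for Fbn2 and by 15.4% for Nedd4l.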

How the data were processed

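RNA from 6 islet libraries was measured as counts of reads per gene in 1 table deposited by the authors. Per the submitters' processing notes the tools include FastQC, STAR and featureCounts with the build mm10; the file name records cutadapt trimming, and the strand setting is not given in the sources used here. All 55536 gene IDs and symbols equal those of GENCODE M21 (GRCm38), which gave positions and exon lengths. Of the 45 genes, 13 share exon sequence with a gene on the opposite strand and 2 with a same-strand neighbour, which makes those counts uncertain.

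The main test followed the series text: DESeq2 1.42.0 (R 4.3.3), genotype as the only term, on genes with at least 10 counts in total, unshrunken log2 fold changes and a Benjamini-Hochberg adjusted p under 0.05. Confidence intervals are the fold change ± 1.96 SE. Alternatives were edgeR 4.0.16, TMM factors, no or a stricter filter (10 counts in 3 libraries), a replicate block and each library left out. The scripts were tested on simulated counts. Within-group pairs of libraries differed by 40.0 to 120.2 times the chi-square expected from counting, so none was deposited more than once.

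The genes and lists were chosen with earlier results of these data known. Named with full values are the genes past the threshold in either test and the most abundant gene per kilobase of each role. Others were chosen after their values were seen, as were the Orc4 and hepatocyte values. A floor of 3 counts equals 0.0272 to 0.0296 CPM and covers counting error only. There were 0 unused value columns.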

Additional observations from a re-analysis of the deposited data

How the results depend on the processing

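The number of genes called in the whole table was 389 (272 higher, 117 lower), and it was 29 (24 and 5) in edgeR and 153 to 952 when 1 library was left out, lowest without knockout replicate 1 and highest without control replicate 3. Among the 45 pathway genes the count of 1 became 0 in edgeR, where 3 had an unadjusted p under 0.05, and 0 to 3 when 1 library was left out: 0 without knockout replicate 1, 2 without knockout replicate 2 (Acvr2a and Tgfbi) and 3 without control replicate 3 (Acvr2a, Inha and Tgfbr2). Among the 98 further genes the count of 5 became 0 in edgeR and 1 to 10 when 1 library was left out. TMM factors, both filters and the replicate block kept these 3 counts within 1.5 times. The cause of the changes was not tested.

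With the replicate number as a block, 405 genes were called, 281 of them shared with the fit without it, and Acvr2a remained the called pathway gene at -0.31 with an adjusted p of 0.0219. Nedd4l did not pass under the block (adjusted p = 0.149). Same-numbered libraries did not deviate together, with correlations of -0.0482, -0.0587 and 0.0105 over 15811 genes. Differently numbered libraries gave -0.0241 to 0.0664. With 3 libraries per group, this check cannot exclude that the numbers pair the libraries.

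Over 48 named genes, 473 of 528 refitted values had the same sign and the same call as the main test, 24 lost a call, 3 gained one and 28 changed sign. The sign changes were of genes that were not called, and their cause was not tested. Under the block Tgfb2 was 0.0017. With 1 library left out, log2 fold changes ran from -0.0814 to 0.11 for Tgfb2, -0.14 to 0.0811 for Bmp2, -0.0525 to 0.30 for Bmp4, -0.20 to 0.0776 for Inhbb, -0.11 to 0.58 for Gdf15, -0.37 to 0.13 for Ltbp2 and -0.11 to 0.0688 for Ltbp4. They ran from -0.0439 to 0.0043 for Tgfbr1, -0.0498 to 0.0311 for Bmpr1a, -0.26 to 0.055 for Acvr1c, -0.0933 to 0.16 for Acvr2b, -0.34 to 0.14 for Fst, -0.0143 to 0.0699 for Smad1 and -0.23 to 0.0631 for Smad9. Over genes averaging 50 or more normalized counts, the median log2 fold change was -0.0066 with size factors, -0.004 with TMM factors and -0.0041 in edgeR. Nog and Grem1 held 46 and 44 counts over all 6 libraries and Gdf15 held 205, so these 3 genes had the fewest counts and the widest intervals of the 45.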

Other observations

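Hamp, Hfe2 and Inhbc, 3 pathway genes known from liver, had counts in knockout libraries and none in the controls. Hamp, which encodes the iron hormone hepcidin and is a BMP6 target in hepatocytes, was at 236.1 normalized counts in knockout replicate 1, at 18.56 in knockout replicate 2 and at 0 in knockout replicate 3 and in the 3 controls. Hfe2, which encodes the BMP co-receptor hemojuvelin, was at 34.0, 12.38 and 1.996 in knockout replicates 1 to 3, and Inhbc, a liver activin chain, at 24.56, 2.063 and 0, with both at 0 in the controls. With all 6 libraries Hamp did not pass (DESeq2 adjusted p = 0.306), and Hfe2 (unadjusted p = 0.000178) and Inhbc were too low for an adjusted p. Without knockout replicate 3, Hfe2 was called higher. A sum of 6 hepatocyte genes followed the same order, at 75760, 2931 and 430.1 in the knockouts and 417.6 to 593 in the controls, and 2 of the 6, Ahsg and Apoa1, were called higher by DESeq2 (adjusted p = 0.00141 and 0.03) and not by edgeR (unadjusted p = 0.0028 and 0.00607). The part of the hepatocyte genes in these values was not tested. All of these genes were chosen after their values were seen.

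Emilin1, which encodes a matrix protein that restrains TGF-beta maturation, was at 16850 normalized counts in control replicate 3 and at 7912 to 10883 in the other 5 libraries. Across the 42 pathway genes with a mean of at least 50, the median coefficient of variation was 11.8% among controls and 6.04% among knockouts; that difference was not tested.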
